A study of Arabidopsis thaliana with 18 samples.

Results

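A set of 92 named nuclear genes of Arabidopsis thaliana was selected for transcripts that were higher after H2O2 and less so after Rose Bengal (RB). They are 92 of the 14119 nuclear genes that could be named on the array. The genes were chosen by their measured values: the mean of the H2O2 arrays (HP) had to lie at least 0.8 above the mean of the control on the log2 scale, the lowest HP array had to lie above the highest control array, and the mean of the RB arrays had to lie less than 0.5 above that of the control. Genes whose symbols begin with UGT or GST, and 5 further genes, were left out by name, which removed 11 genes that met the thresholds. The values behind this choice are given below as a description and carry no test.

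Transcript levels were measured on total RNA from cell suspension cultures (ACSC) of the Columbia ecotype with 18 ATH1 arrays, 3 biological replicates in each of 6 groups. Cultures received no chemical (2 control groups of 3 arrays each), RB, Methyl Violet (MV) or Indigo Carmine (IC) at 0.5 μM, or H2O2 at 500 μM. By their titles, 1 control group serves RB and HP and the other serves MV and IC, array by array, so that each treated array has a control of its own number. The labels give a growth light of 50 μE for all arrays. They also mention high light for 30 min and darkness for 1 h without assigning either to an array. The methods give a treatment of 30 min for light-grown cells, in light or in darkness. The study describes the RB and H2O2 cultures whose transcripts it profiled as treated in the light. MV is named Methylene Violet in the methods. All groups were therefore the same ecotype in culture, a model without organs, and an array averages over all cells of a flask, so that fewer cells of a type and less RNA per cell cannot be told apart.

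H2O2 is a small reactive oxygen species that crosses membranes and oxidizes the thiols of proteins and of glutathione, the main soluble thiol of plant cells. Glutathione is made from cysteine, which plants build by reducing sulfate. RB, MV and IC were used as photosensitizers, dyes that pass light energy to oxygen and give singlet oxygen, a reactive form with a shorter life, and plant cells respond to either with partly separate sets of transcripts.

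Array medians ranged from 4.91 to 5.14 on the log2 scale, and replicates of a group had a correlation over probe sets of at least 0.9643. That lowest value belonged to the control of RB and HP. Of 16 marker genes listed for chloroplast-bearing, dividing or differentiated cells, 1 had a named probe set, so that the cell type could not be checked through that list. Among genes with photosynthesis symbols, a choice made after the values were seen, 4 were named, and their mean signals of 7.8 to 9.84 were all above the upper quartile of nuclear genes, although signals of different probe sets are not on 1 scale of abundance. The platform's annotation named 51 of the selected genes. The other 41 were named only through the study's own lists of changed transcripts, so that their presence in the set depends in part on the study's calls.

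The selected genes covered a wide range of sizes. HP minus control ran from 0.803 to 3.28 with a median of 1.12, a 2.17-fold difference in levels, against a median of -0.0315 over all nuclear genes. The difference was at least 2 in 6 genes, at least 1 in 58, and between 0.8 and 1 in the other 34. Among the 11 genes left out by name, HP minus control was larger than 3.28 in GSTU24 (4.5), LBD41 (4.41) and CYP81D11 (3.74). RB minus control ran from -1.49 to 0.486 with a median of 0.214, and it was below 0 in 24 genes. Not overlapping was part of the rule, which 6.42% of all nuclear genes met, so nothing is read from that count.

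**Figure D1:**
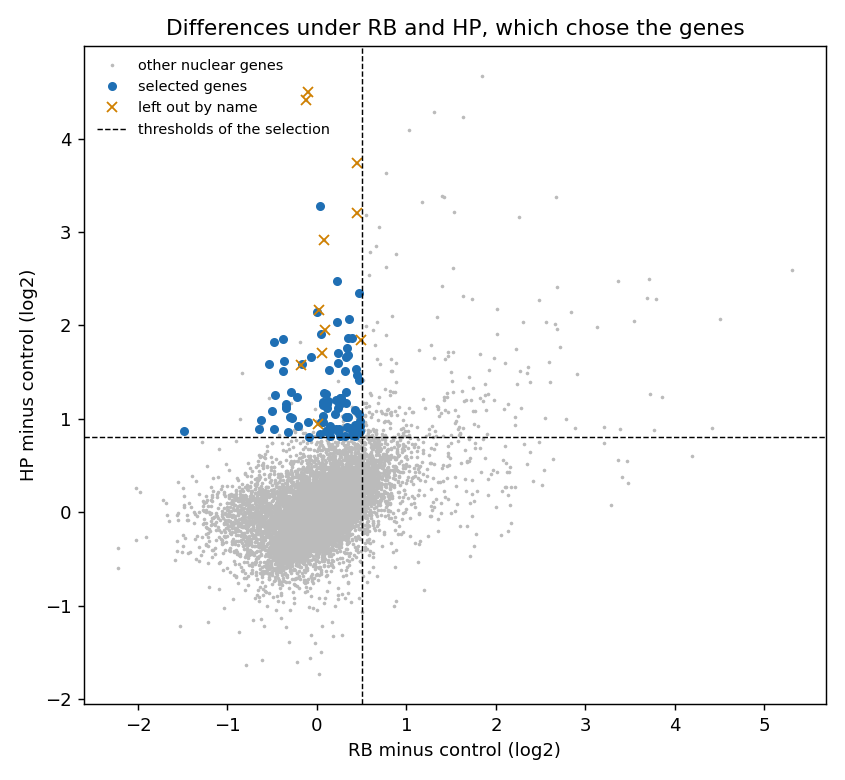
Mean HP minus control (vertical axis, log2) against mean RB minus control (horizontal axis, log2) for 14119 nuclear genes, 1 point per gene, with the 92 selected genes in blue and the 11 genes left out by name as crosses. Dashed lines mark the thresholds 0.8 and 0.5, and grey points above the one line and left of the other are genes whose HP and control arrays overlapped.

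The selection does not mean that RB left these genes unchanged, in the mean or on every array. It kept the RB mean less than 0.5 above the control, and the median RB difference was 0.214, against 0.0192 over all nuclear genes. The lowest HP array lay above the highest RB array in 78 of the 92 genes, against 9.68% of nuclear genes, a share that the rule sets in large part, and the arrays overlapped in the other 14. All 3 RB arrays lay above all 3 control arrays in 6 of the 92 (8.79% of nuclear genes) and below them in 4 (8.25%). RB minus control was between 0.25 and 0.5 in 37 genes. A further 152 genes met both thresholds for HP but had an RB difference of 0.5 or more, so that 255 genes passed for HP whatever RB did. Near the lower limit for HP, CYP72A13 (0.803), AT2G46780 (0.817) and AT5G37380 (0.817) were inside, and AT1G04990 (0.799), AT3G26450 (0.798) and FIP2 (0.794) were outside. Near the limit for RB, HMT-1 (0.486), bZIP52 (0.481) and AT1G68340 (0.477) were inside, and AT1G03370 (0.508), AT4G30490 (0.513) and AT1G51620 (0.521) were outside.

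Membership also depended on single arrays. When any 1 of the 9 arrays was left out, between 79 and 153 genes met the rule, with 153 without control 3 and 144 without HP2, and 41 of the 92 met it in all 9 cases. Of those 41, 37 had an HP difference of at least 1. HP2 was the lowest of the HP arrays in 50 of the 92 genes, and the median difference between HP and control arrays of the same number was 1.19, 1.0 and 1.37 for numbers 1, 2 and 3. Every pair difference was above 0, as the rule implies, the smallest being 0.16, and 75 genes differed by more than 0.5 in all pairs.

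The gene with the largest difference of the set was AT1G12030, which encodes a protein of unknown function (DUF506). Its levels were 4.23, 5.57 and 4.79 in the control, 4.32, 5.86 and 4.52 in RB, and 7.21, 8.56 and 8.66 in HP. The ranges of RB and control arrays overlapped in this gene, and HP stood 3.28 above the control, a 9.71-fold difference in levels. AT4G27654, for which the annotation gives no function, measured 5.86, 7.93 and 7.04 in the control, 6.47, 7.21 and 7.82 in RB and 10.01, 9.38 and 8.86 in HP. It had the second largest difference, 2.47, and its control arrays spread over a wide range. AT1G65690, of the late embryogenesis abundant hydroxyproline-rich glycoprotein family, measured 5.86, 4.96 and 5.33 in the control and 8.48, 7.33 and 6.78 in HP, and its RB mean equalled that of the control, with a difference of 0.0.

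**Figure D2:**
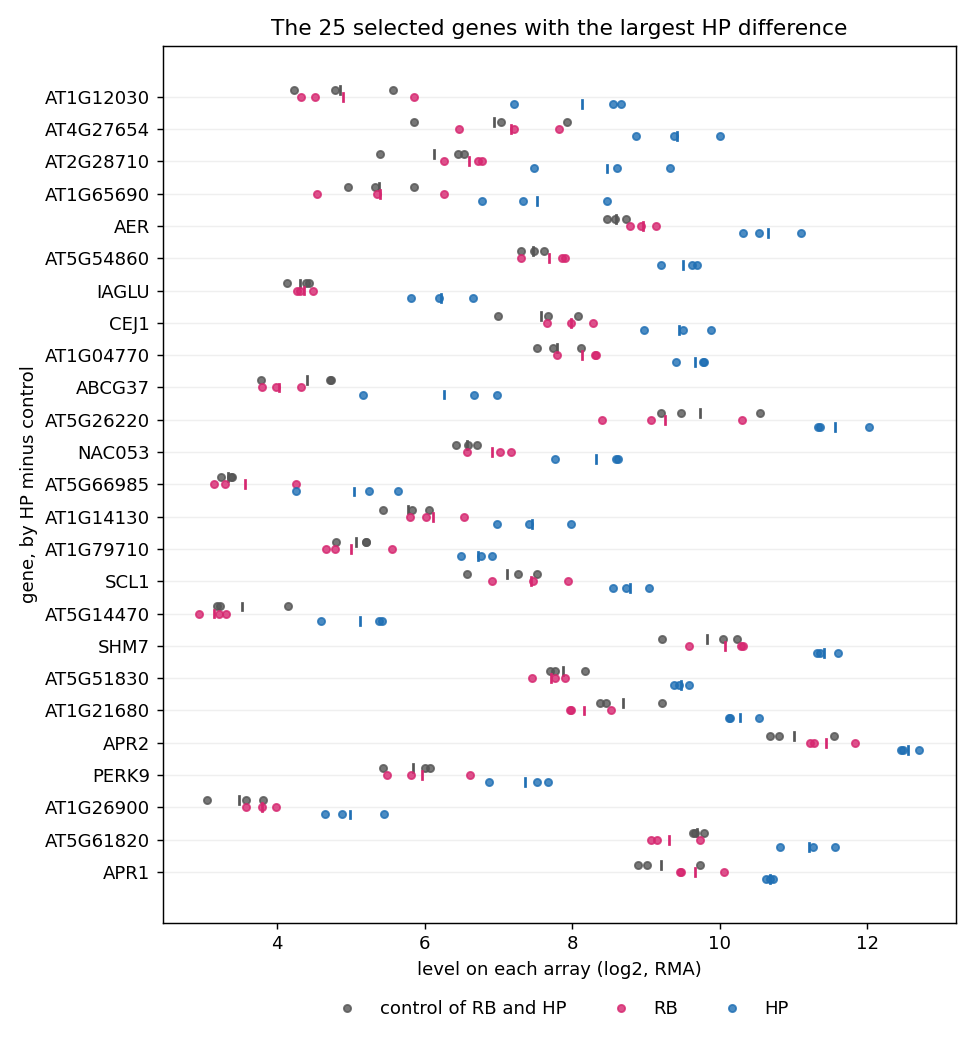
Levels (log2, RMA) of the 25 selected genes with the largest HP difference on each array of the control of RB and HP, RB and HP, with 1 point per array and a tick at each group mean. Levels of HP arrays lie to the right of all control arrays in every gene, as the selection required, and AT5G66985 is the gene whose RB and HP arrays overlap.

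Sulfate assimilation is the route from sulfate to cysteine. The pathway activates sulfate with ATP sulfurylase, reduces it through adenosine 5'-phosphosulfate (APS) reductase and sulfite reductase, and joins the sulfide to a serine derivative made by serine acetyltransferase. Of the 92 genes, 7 were grouped by hand as having a place in or next to it, with HP differences from 0.87 to 1.83 and a median of 1.12. SULTR1;2, a high-affinity sulfate transporter of roots, measured 5.92, 6.76 and 5.88 in the control, 6.45, 6.07 and 6.39 in RB, and 7.13, 7.31 and 7.48 in HP. RB arrays of SULTR1;2 lay within the range of the control, and HP was higher by 1.12. ATP sulfurylase 1 (APS1) measured 11.02, 11.21 and 10.58 in the control, 11.36, 11.44 and 10.72 in RB and 11.76, 11.69 and 11.96 in HP, with overlap between RB and control and none between HP and either.

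Both APS reductases of the set, which carry out the step that commits sulfate to reduction, had similar differences. APR1 levels were 9.01, 9.74 and 8.89 in the control, 9.46, 10.06 and 9.47 in RB, and 10.63, 10.68 and 10.73 in HP. APR2 levels were 10.8, 11.55 and 10.68 in the control, 11.28, 11.83 and 11.22 in RB, and 12.46, 12.48 and 12.71 in HP. In both genes array 2 was the highest of the control and of RB, HP arrays were close together, and the RB differences of 0.45 (APR1) and 0.43 (APR2) were just under the limit of the rule. Serine acetyltransferase 2;2 (SERAT2;2) was higher by 0.91 in HP, and its lowest HP array, 10.76, was below its highest RB array, 10.82.

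AT5G26220 is annotated as a ChaC-like protein, a family that breaks down glutathione. Its levels were 9.21, 10.55 and 9.47 in the control, 9.07, 10.31 and 8.4 in RB, and 11.36, 11.33 and 12.02 in HP, a difference of 1.83 for HP and -0.48 for RB. HMT-1, a homocysteine methyltransferase that regenerates methionine, was the gene nearest the limit for RB and was higher by 0.92 in HP.

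**Figure D3:**
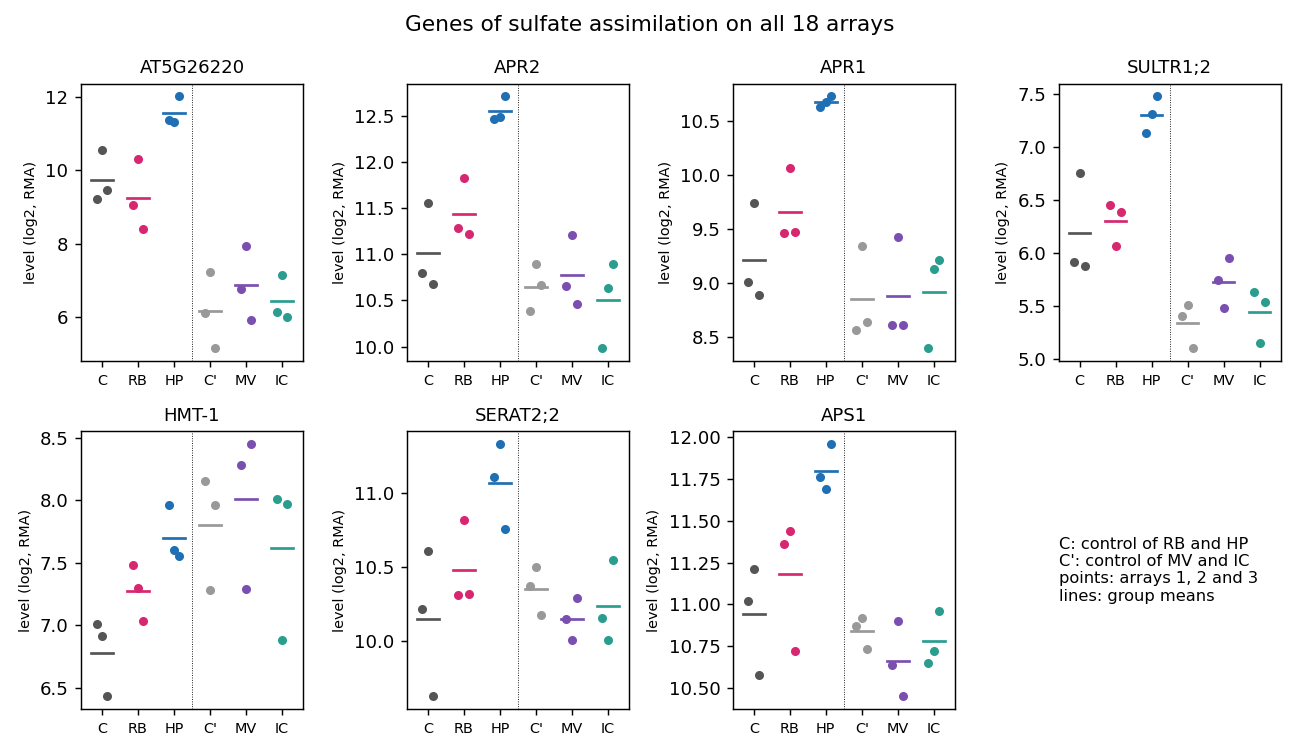
Levels (log2, RMA) of the 7 selected genes of sulfate assimilation on all 18 arrays, by group, with 1 point per array and a line at the group mean. The HP arrays are above the control of RB and HP in each panel, and AT5G26220 is much lower in the 9 arrays of the MV and IC set than in the control of RB and HP.

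Other genes of the pathway, from a list of 27 loci of sulfate assimilation and glutathione synthesis, showed where the selection stopped. The list was drawn up with earlier results of these data known, 17 loci were measured, and 14 of those were named only through the study's lists. Of the 11 genes on it that were not selected, 2 rose under HP (limma, adjusted p under 0.05) and 0 fell, and 7 rose with the replicate number as a block. Over all probe sets 0.629% rose without and 1.77% with the block, and 0.185% fell without it, but 8 of the 11 have a name here because the study called them changed, so nothing is read from the comparison. Of the 3 with platform names, 0 rose without the block and 1 with it. Those called without the block were SERAT2;1, another serine acetyltransferase (HP minus control 2.62, adjusted p = 6.7e-06 by limma, n = 3 arrays per group), and the third APS reductase, APR3 (2.77, adjusted p = 0.000139 by limma). Both passed when any 1 array of the compared groups was left out. SERAT2;1 also rose under RB, by 1.53 (limma, adjusted p = 0.00119). Without the block it was the only gene of the 11 called there, against 1.44% of probe sets that rose and 1.52% that fell under RB. APR3 had an RB difference of 0.88, which is above the limit of 0.5. It did not pass without the block (limma, adjusted p = 0.161) and passed with it (limma, adjusted p = 0.0184). With the block, 3 of the 11 rose, APR3 among them, and 2 fell under RB, where 3.56% and 3.69% of all probe sets did. Of the 3 with platform names 1 rose and 0 fell.

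Enzymes of redox chemistry and detoxification made up 11 of the 92 genes, with a median HP difference of 1.16. Alkenal reductase (AER), which reduces reactive carbonyls formed from oxidized lipids, measured 8.73, 8.47 and 8.58 in the control, 8.79, 9.14 and 8.94 in RB and 10.54, 10.32 and 11.11 in HP. All RB arrays of AER lay just above the control, by 0.36 in the mean, and all HP arrays lay far above both, by 2.06. IAGLU, which joins glucose to the auxin indole-3-acetate, measured 4.43, 4.39 and 4.13 in the control and 4.27, 4.31 and 4.49 in RB, with no separation between them, and 6.65, 6.2 and 5.82 in HP. AT1G14130, of the 2-oxoglutarate and iron dependent oxygenases, was higher by 1.68, and FMO, a flavin-binding monooxygenase, by 1.42.

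The remaining 7 of this group were GRXS13, a glutaredoxin, DJ1A, a homologue of human DJ-1, the cytochrome P450 genes CYP72A13 and CYP72A15, which are 3 genes apart on the chromosome, AT4G19880, of the glutathione S-transferase family, DMR6, an oxygenase that hydroxylates salicylic acid, and NDB2, an external NAD(P)H dehydrogenase of mitochondria. Their differences ran from 0.8 to 1.17. From a list of 49 loci of catalases, peroxidases, superoxide dismutases, reductases and thioredoxins, 36 had no named probe set and 13 were measured. The 13 held no catalase and no superoxide dismutase, so the counts say nothing about these enzymes. DHAR2, a dehydroascorbate reductase, met the thresholds with an HP difference of 1.96 and is not among the 92 because it was left out by name. Of the other 12, 0 rose or fell under HP with limma, with or without the block. Over all probe sets 0.629% rose without and 1.77% with the block. Under RB 2 of the 12 fell with and without the block, against 3.69% and 1.52% of all probe sets. They were DHAR3 and GPX5, singled out after their values were seen, and neither passed without RB2 or without RB3. Both were named only through the study's lists of changed transcripts, and 0 of the 10 genes with platform names were called.

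A list of 22 loci that answer to reactive electrophiles or TGA factors, transcription factors that act in detoxification, held 9 measured genes. AER was the only selected gene among them. Of the 7 that were neither selected nor left out by name, 5 rose under HP and 3 under RB (limma, adjusted p under 0.05), where 0.629% and 1.44% of all probe sets did. With the block the count under HP was again 5 (1.77% of all probe sets), and under RB 5 rose (3.56%) and 1 fell (3.69%). Names of 5 of the 7 came only from the study's lists of changed transcripts. Of the 2 with platform names, 1 rose under HP with and without the block, and under RB 0 rose without the block and 1 with it. The transcription factors ATAF1 and NAC102 rose by 3.37 and 3.16 under HP (limma, adjusted p = 2.39e-06 for each). ATAF1 and NAC102 also rose under RB, by 2.67 and 2.26 (limma, adjusted p = 5.6e-05 and 0.000122), above the limit that the rule set.

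Transcriptional regulators contributed 13 genes, with a median HP difference of 1.2. AT2G28710, a zinc finger protein of the C2H2 type, measured 6.53, 6.45 and 5.4 in the control, 6.78, 6.73 and 6.27 in RB and 9.33, 8.61 and 7.49 in HP. Array 3 was the lowest in each of these groups, and the difference of 2.35 was the third largest of the set. CEJ1, a member of the DREB branch of AP2 factors that answers to ethylene and jasmonate, measured 8.08, 7.68 and 6.99 in the control and 9.88, 9.5 and 8.97 in HP, again with array 3 lowest. Its RB arrays, 8.28, 7.99 and 7.66, overlapped the control and lay below all HP arrays.

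NAC053, a NAC factor that activates genes of the proteasome, measured 6.43, 6.59 and 6.71 in the control, 7.17, 6.57 and 7.02 in RB and 8.62, 7.77 and 8.59 in HP. It was higher in HP by 1.75, with no overlap with RB. SCL1, of the GRAS family, was higher by 1.66. The others were NPR4, a receptor of salicylic acid, MYB30, a regulator of the hypersensitive response, the WRKY factors WRKY6 and WRKY48, ABF3 of abscisic acid signalling, bZIP52, IBH1, VRN5 and the B-box protein AT2G47890, with differences from 0.89 to 1.29.

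Protein turnover and folding was represented by 4 genes with small differences, UBQ3 (polyubiquitin, 0.86), AT1G75990 (a protein with a PAM domain, 0.84), RHF1A (a RING ligase, 0.82) and AT5G37380 (a DnaJ-domain protein, 0.82). Of 27 listed loci for the proteasome, autophagy and folding in the endoplasmic reticulum, 16 were measured and NAC053 was selected. Of the other 15, 0 rose or fell under HP with limma, with or without the block, where 0.629% of all probe sets rose without and 1.77% with it. Apart from RPN12a of the proteasome, the 15 were genes of autophagy or folding, so the count says little about the proteasome. Under RB 3 of these 15 fell, named after their values were seen, namely SDF2 (-0.70, limma, adjusted p = 0.00895), CNX1 (-1.31, limma, adjusted p = 5.6e-05) and PDIL1-1 (-1.18, limma, adjusted p = 0.00114), which take part in folding in the endoplasmic reticulum. Over all probe sets 1.52% fell, but these 3 have a name here only through the study's lists of changed transcripts, and 0 of the 12 genes with platform names were called under RB.

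Transport proteins, 10 genes with a median HP difference of 1.15, were the group with the lowest median under RB, a value that the selection itself used. RB minus control was below 0 in 7 of the 10, with a median of -0.275, against 0.214 over all 92. AT5G54860, of the major facilitator superfamily, measured 7.31, 7.62 and 7.49 in the control, 7.91, 7.31 and 7.86 in RB and 9.7, 9.21 and 9.63 in HP. ABCG37, an ABC transporter that exports auxin precursors and phenolic compounds, measured 4.72, 3.78 and 4.73 in the control, 3.8, 3.98 and 4.32 in RB and 6.98, 5.16 and 6.67 in HP. In ABCG37, array 2 was the lowest of both control and HP, and the difference between HP and control was smallest in that pair, at 1.38 against 1.86 in the mean. AT1G79710, also a major facilitator, was higher by 1.66 and AT1G11670, a MATE efflux carrier, by 1.25.

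The other transport genes were ABCB4, an auxin carrier, SLAH3, an anion channel, PROT2, which carries proline, DUR3, a urea carrier, AT2G36950 and AT5G10820. For SLAH3 and DUR3 the RB differences were -0.50 and -0.47. On a list of 17 ABC and MATE efflux loci, 10 were measured, 2 were selected (ABCG37 and ABCB4), and of the other 8, 0 rose under HP with limma (0.629% of all probe sets) and 2 did with the block (ABCG34 and FRD3, 1.77%). ABCC4, named after its values were seen, fell by 1.26 under RB (limma, adjusted p = 0.000653) and was the only one of the 8 called there without the block. With the block 1 of the 8 rose and 3 fell under RB, where 3.56% and 3.69% of all probe sets did. ABCG34, FRD3 and ABCC4 were named only through the study's lists of changed transcripts. Of the 4 with platform names, 0 rose under HP in either fit, and under RB 1 rose with the block and 0 fell.

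Kinases and other signalling proteins numbered 10, with a median HP difference of 0.995. PERK9, a receptor-like kinase with a proline-rich outer domain, measured 6.01, 5.43 and 6.07 in the control, 6.62, 5.49 and 5.81 in RB and 7.53, 6.87 and 7.68 in HP. APK2B, a protein kinase, measured 10.99, 10.79 and 10.8 in the control and 12.06, 11.78 and 12.43 in HP. AT5G25930, a leucine-rich repeat kinase, differed by 1.22 and AT4G28350, a lectin kinase, by 1.19. IMK2, another receptor-like kinase, singled out after its values were seen, had the lowest RB difference of the set, -1.49. Its levels were 4.87, 5.95 and 6.21 in the control, 4.34, 4.19 and 4.03 in RB and 6.27, 6.69 and 6.67 in HP. All RB arrays of IMK2 were below the control and all HP arrays above it.

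Further metabolic enzymes made up 7 genes. SHM7, of the serine hydroxymethyltransferase family that supplies carbon units, measured 10.04, 10.23 and 9.22 in the control, 10.29, 10.32 and 9.58 in RB and 11.32, 11.36 and 11.6 in HP. AT5G14470, a kinase of the GHMP family, measured 4.15, 3.22 and 3.19 in the control and 5.42, 4.6 and 5.38 in HP. AT5G51830, a sugar kinase of the pfkB family, differed by 1.59, and ACR4, an ACT domain protein, by 1.06. The 3 cell wall genes were TBL22 (1.27), of a family that acetylates wall polymers, CSLE1 (0.89), a cellulose synthase-like protein, and XXT5 (0.86), a xylosyltransferase of xyloglucan. The last 27 genes had another or no assigned function, 8 of them among the 25 with the largest differences. Of those 8, AT1G21680, AT5G61820, AT1G26900, AT5G66985 and AT1G04770 had differences of 1.58, 1.51, 1.52, 1.71 and 1.86.

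NDB2 and ABCB4 were also on a list of 17 loci that answer to mitochondrial dysfunction, of which 11 were measured. Of the 9 that were not selected, 1 rose under HP with limma (0.629% of all probe sets), and 3 did with the block (1.77%). CYP81D8, a cytochrome P450, was the gene called without the block (1.73, limma, adjusted p = 0.00892), and it did not pass without HP1 or without HP3. Under RB 3 of the 9 rose (1.44% of all probe sets) and 4 with the block (3.56%), among them DIC2, a mitochondrial dicarboxylate carrier, which had 1.64 (limma, adjusted p = 0.0159) and did not pass without control 1, RB1 or RB2. CYP81D8, DIC2 and 1 further gene were named only through the study's lists of changed transcripts. Of the 6 with platform names, 0 rose under HP without the block and 1 with it, and 1 rose under RB in either fit.

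The control cultures of the MV and IC set give a further level to set beside HP, with the limit that the sources do not say whether both sets were normalized together, and set and control cannot be told apart. In 73 of the 92 genes all HP arrays lay above all arrays of that control, where 12.4% of nuclear genes did so, and in 0 genes did they all lie below it, against 14.3%. The genes were selected for high values on these HP arrays, so nothing is read from those shares. The mean of the control of MV and IC lay above the HP mean in 11 genes. It exceeded the control of RB and HP by 1 or more in 9 genes and fell short of it by 1 or more in 15. No share over all nuclear genes is given for these counts, and the selection also used the control of RB and HP, so nothing is read from them. The 3 genes with the widest gaps were singled out after their values were seen. AT5G26220, the ChaC-like gene, had a mean of 9.74 in the control of RB and HP and of 6.17 in the other control. AT1G11670, the MATE carrier, had 6.87 and 4.88. AT1G70500, which has no description in the annotation, had 6.12 and 8.47, the latter above its HP mean of 7.13. For these 3 genes the gap between controls was larger than the difference that selected them. It was also larger, in either direction, in others of the 92, among them WRKY6, MYB30, DJ1A, CSLE1, SLAH3, NDB2, bZIP52, HMT-1 and XXT5. In most of the 92 it was smaller.

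**Figure D4:**
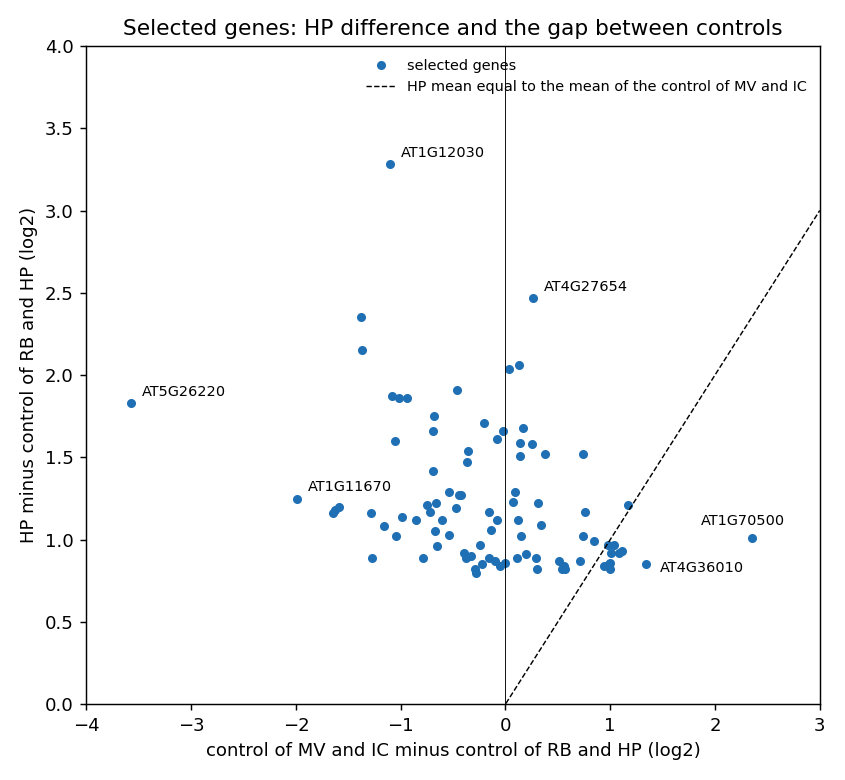
HP minus control of RB and HP (vertical axis, log2) against the mean of the control of MV and IC minus that of the control of RB and HP (horizontal axis, log2), 1 point per selected gene. The 11 points to the right of the dashed line are genes whose HP mean was below the control of MV and IC, and AT5G26220 and AT1G70500 are at the ends.

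MV and IC were measured on arrays that played no part in the selection, which allows a test of their differences. The spread behind the p-values and intervals was estimated over all 18 arrays, and the 9 arrays that chose the genes took part in it. These p-values and intervals are thus not fully independent of the selection. After MV, 0 of the 92 genes passed (limma over all 22746 probe sets, adjusted p under 0.05), where 0.0% of all probe sets passed, and 0 passed with the block. The median difference was 0.00401, against 0.016 over all nuclear genes, with a lowest value of -1.38 and a highest of 0.814. At an unadjusted p under 0.05 there were 7 genes, 3 higher and 4 lower, or 7.61% of the 92 against 3.33% of all probe sets, and 10 with the block against 5.59%. Without MV2 there were 2. The 95% interval of the difference lay within 1 on either side of 0 in 76 genes (82.6%, against 91.6% of all nuclear genes). Its upper bound was under 0.8 in 71 genes, but no share over all nuclear genes is given, so nothing is read from that count.

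The gene highest after MV was AT1G04770, of the tetratricopeptide repeat family, at 6.4, 7.04 and 6.89 in the control and 7.59, 8.13 and 7.06 in MV. All MV arrays lay above the control, by 0.81 in the mean (95% interval 0.23 to 1.4), and the gene did not pass (limma, unadjusted p = 0.00953, adjusted p = 1.0). PIRL1, a leucine-rich repeat protein related to Ras-binding proteins, was at 6.28, 6.41 and 6.09 in the control and 5.74, 5.4 and 5.98 in MV, a difference of -0.56 (95% interval -0.95 to -0.16) with limma's unadjusted p = 0.0085 and adjusted p = 1.0. RSW10, ribose 5-phosphate isomerase, had -0.64 (95% interval -1.12 to -0.16, limma, unadjusted p = 0.0123, adjusted p = 1.0). Its MV arrays, 6.55, 6.29 and 6.85, overlapped the control at 7.18, 7.63 and 6.8.

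After IC, 0 of the 92 passed, where 0.0% of all probe sets did, and 0 had an unadjusted p under 0.05 with limma, against 1.64% of all probe sets. The differences were narrow, from -0.369 to 0.282 with a median of -0.039, and the interval lay within 1 on either side of 0 in 82 genes (89.1%, against 93.6% of nuclear genes). The smallest p-values belonged to SRC2, a C2 domain protein of cold and stress responses (-0.24, limma, unadjusted p = 0.148), ABCB4 (-0.28, limma, unadjusted p = 0.192) and RSW10 (-0.30, limma, unadjusted p = 0.2).

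**Figure D5:**
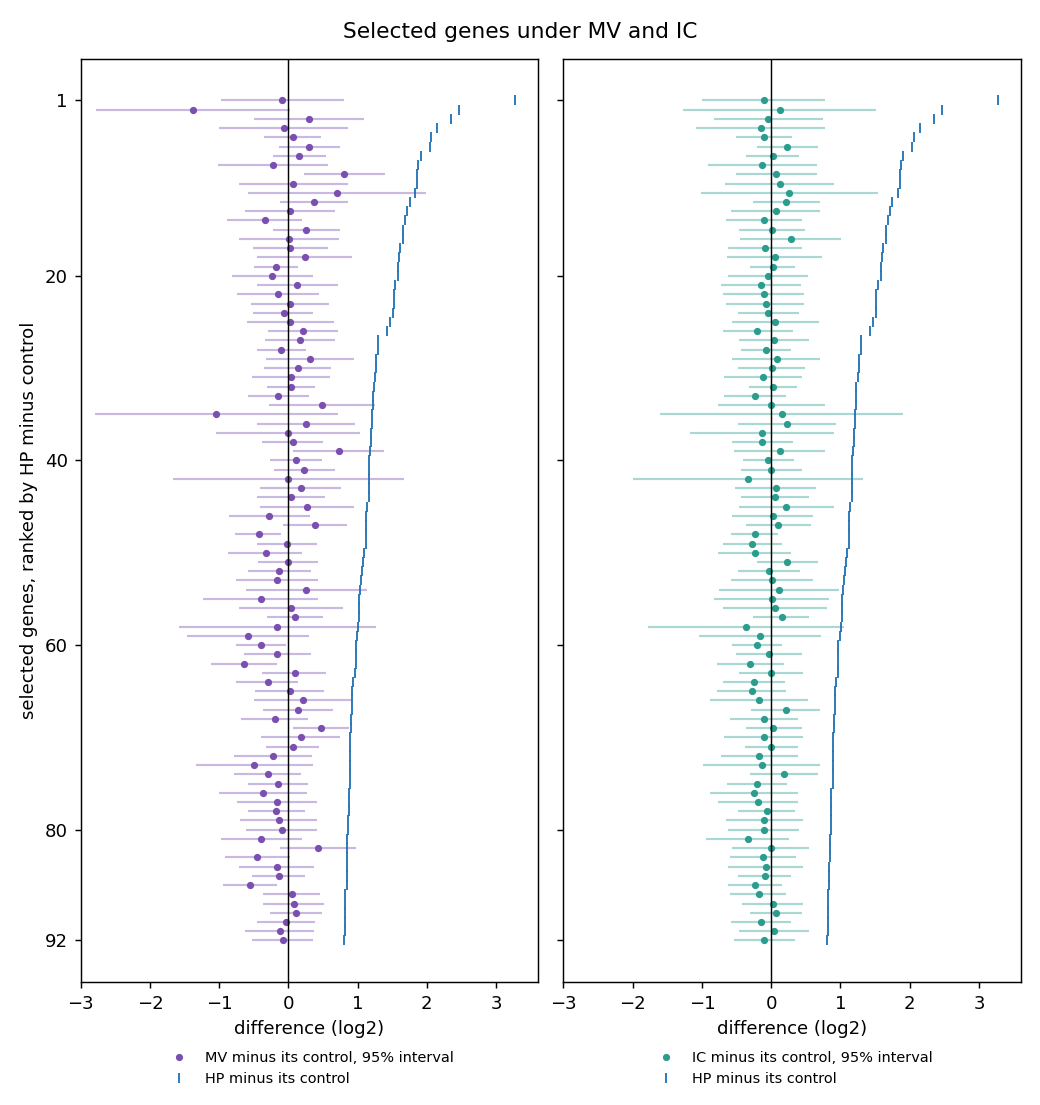
Differences of MV (left) and IC (right) from their control on the log2 scale for the 92 selected genes, with 95% intervals from limma, and HP minus its own control as blue ticks. Genes are ranked by the HP difference, 1 being AT1G12030, and the MV and IC points spread around 0 with medians of 0.00401 and -0.039.

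The dyes at the same dose were also compared with each other. MV minus IC passed in 0 of the 92 genes (limma, adjusted p under 0.05), where 0.0% of probe sets passed, and at an unadjusted p under 0.05 in 4, 2 higher and 2 lower, against 1.97% of all probe sets. With the block there were 9, against 3.9%. AT4G27654 had the lowest value, -1.50 (95% interval -2.9 to -0.1, limma, unadjusted p = 0.0372, adjusted p = 1.0), from MV levels of 5.37, 5.32 and 6.77 and IC levels of 8.54, 7.71 and 5.71. MV lay below IC in arrays 1 and 2 and above it in array 3, at 6.77 against 5.71. AT1G04770 had 0.74 (95% interval 0.16 to 1.33, limma, unadjusted p = 0.0163, adjusted p = 1.0), and SGP2, a small GTP-binding protein, had 0.44 (95% interval 0.03 to 0.85, limma, unadjusted p = 0.0352, adjusted p = 1.0). Without IC1 or without MV2 the 4 genes became 1, and without MV1 they became 2. The 95% intervals of MV minus IC lay within 1 on either side of 0 in 75 of the 92 genes (81.5%, against 91.9% of nuclear genes), which does not show that the dyes act alike.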

How the data were processed

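Signals of 22810 probe sets on 18 ATH1 arrays were background-corrected, quantile-normalized and summarized by RMA by the authors with affy, whose version is not given in the sources used here. The deposited values are log2 signals from 2.43 to 13.7. The 64 control probe sets were left out. Probe sets were named by the platform annotation, or else through the locus column of the study's tables of changed transcripts, whose fold changes and p-values were not used. Of all 22810 probe sets, control probe sets included in this count, 14272 had exactly 1 nuclear locus, 540 several and 7895 no name. A locus was represented by its probe set with the highest mean.

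All arrays were fitted in R 4.3.3 with limma 3.58.1 as 6 groups (12 residual and 3.37 prior degrees of freedom), with p-values adjusted by Benjamini and Hochberg over 22746 probe sets. The number of arrays limits the precision, and the median half-width of a 95% interval over the 92 genes was 0.523. The script was tested on simulated data. Python 3.11.15 with matplotlib 3.10.9 drew the figures.

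Control arrays are titled by the number of the arrays they belong to. Deviations from the group means correlated between arrays of the same number with a lowest r of 0.483 for control and HP, 0.000948 for control and RB, 0.216 for control and IC, -0.333 for control and MV, and 0.158 for MV and IC, so a fit with this number as a block stands beside the results it changes.

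The genes and gene lists were chosen with earlier results of these data known. The text names the 25 largest HP differences of the set and the larger ones left out by name. It also names the 3 smallest p-values under MV, IC and MV minus IC, the genes next to each threshold, up to 4 of each functional group and up to 4 of each list. Functional groups were assigned by hand from the annotation. Others are named without values or as chosen later. Promoter motifs and sequences were not analysed here.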

Additional observations from a re-analysis of the deposited data

How the results depend on the processing

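The rule gave 92 genes, and other settings gave 79 (another quantile normalization, 71 of them shared with the 92), 76 (array medians subtracted, 65 shared), 78 (only probe sets with a mean of at least 5), 117 (every nuclear or unnamed probe set) and 134 (the replicate block, with every pair difference above 0 in place of no overlap, which holds all 92). Names of the platform alone left 51, an HP limit of 1 left 58 and an RB limit of 0.25 left 55, each by construction fewer. Leaving out 1 of the 9 arrays gave 79 to 153. None of the 92 passed in MV minus control, IC minus control or MV minus IC under any of these settings that apply, with the replicate block, with the arrays of the set alone, with a trend and robust prior, or without any 1 array (lowest 0, highest 0).

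Counts over the whole gene lists, selected genes included, moved more, and the cause was not tested. Selected genes were chosen on HP and RB values, so nothing is read from the size of these counts, here or without 1 array. Over all probe sets 0.629% rose under HP without and 1.77% with the block. Under RB 1.44% rose and 1.52% fell without it, and 3.56% and 3.69% with it. With the replicate block, which pairs arrays of the same number, sulfate assimilation had 13 genes higher in HP in place of 5, and 3 higher and 2 lower in RB in place of 1 and 0. Mitochondrial response had 5 higher in HP in place of 2, the electrophile list 5 higher and 1 lower in RB in place of 3 and 0, and the efflux list 4 higher in HP in place of 2, and 1 higher and 3 lower in RB in place of 0 and 1. With the arrays of the set alone, the counts higher in HP were 2 for sulfate assimilation, 1 for mitochondrial response, 0 for the efflux list and 0 for antioxidant enzymes (1 with all arrays), which had 0 lower in RB in place of 2, or 1 with the trend and robust prior. With array medians subtracted, sulfate assimilation had 3 higher in HP, the electrophile list 1 lower in RB (1 also after another quantile normalization) and the efflux list 2 lower in RB. With a mean of at least 5, the efflux list had 1 higher in HP and 2 lower in RB.

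Without 1 array, sulfate assimilation had 2 to 9 higher in HP and 1 to 2 in RB, mitochondrial response 0 to 2 in HP and 0 to 3 in RB, and the efflux list 0 to 2 in HP and 1 to 2 lower in RB. Antioxidant enzymes had 0 to 2 lower in RB, and the electrophile list 0 to 1 lower in RB. Leaving out an array of a group of 3 leaves its spread to 2 arrays. The planned search for promoter motifs was not run. The median half-width of 0.523 on the log2 scale limits what MV and IC can show for single genes.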
